A study of Homo sapiens with 2 samples.

Results

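PYCR1, GLUD1 and OAT encode mitochondrial enzymes that join proline, glutamate and ornithine. They were taken as the probe sets (groups of short probes that read 1 transcript) whose platform symbol is PYCR1, GLUD1 or OAT. Each gene had 1 probe set, so the 3 genes are 3 of 15835 named probe sets and 3 of 14812 named genes. The 3 genes were chosen by their log2 differences between the same 2 arrays, so the values are given as a description with no test.

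The study compared BE(2)C cells, an established human neuroblastoma line with amplified MYCN, after transfection with an siRNA against MYCN (1 culture, the siRNA MYCN2 from Qiagen) or with control siRNA (1 culture, ON-TARGETplus from Dharmacon). Both cultures were grown in DMEM with fetal calf serum, both were transfected with the same lipid reagent (Lipofectamine), and RNA was taken 36 hours after transfection. The RNA was hybridised to Affymetrix Human Gene 2.0 ST arrays, and the comparison addresses which transcripts differ when MYCN, a transcription factor of the MYC family, is targeted. With a single siRNA per arm from different suppliers, the target of the siRNA and other properties of the reagent cannot be told apart, and with 1 array per group no value has a replicate or a p-value. MYCN levels were not analysed here, so the extent of the knockdown is not given.

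Proline is made from pyrroline-5-carboxylate (P5C), an intermediate that also stands in equilibrium with glutamate semialdehyde. P5C is supplied from glutamate by P5C synthase or from ornithine by OAT, and PYCR1 reduces it to proline with NAD(P)H. GLUD1, glutamate dehydrogenase, works at the other end of the glutamate pool, where it interconverts glutamate with alpha-ketoglutarate and ammonium. MYC-family proteins are known to raise glutamine use and proline synthesis in several tumour cell types, and the standard formula of DMEM contains no proline.

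A gene counted as measured when its log2 value was at or above the median of all probe sets in at least 1 array (4.55 in the MYCN siRNA array and 4.60 in the control siRNA array). This kept 10592 genes, among them all 3 enzymes. Listed genes without a named probe set were not counted as measured, whatever their level. Over the measured genes the median log2 difference, MYCN siRNA minus control siRNA, was 0.01, with an SD of 0.43. The one spread that these arrays hold is between probe sets of the same gene, which had an SD of 0.32 per probe set over 374 genes. It leaves out the spread between cultures and between hybridisations.

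Transcripts of the 11 measured genes of 13 adrenergic neuroblastoma markers lay between 6.53 and 11.8 in the MYCN siRNA array and between 6.47 and 11.8 in the control siRNA array, so the labelled cell type carried its markers. Of the 11, 3 were lower and 8 higher, beside 48% and 50.9% of all measured genes. DBH, the enzyme that makes noradrenaline, was the 1 of them past 2-fold, beside 3.37% of all measured genes past 2-fold either way. It was at 10.8 in the MYCN siRNA array and 9.32 in the control siRNA array (difference 1.45). ISL1 was the lowest of the 11, at a difference of −0.43. With 11 genes no departure from those shares is read. Of the 9 mesenchymal or fibroblast markers, 6 had a named probe set and 5 were measured. The 5 lay between 4.35 and 10.8 in the MYCN siRNA array and between 4.79 and 11.2 in the control siRNA array. SNAI2, a transcription factor of neural crest cells, was the highest. The median difference of the 5 was −0.35. It includes PRRX1, at 4.35 in the MYCN siRNA array, below that array's median, and 4.86 in the control siRNA array. PRRX1 counted as measured only through the array where it was higher, so the median is not read as a shift. LUM, the matrix protein lumican, was at 5.37 in the MYCN siRNA array and 6.54 in the control siRNA array (difference −1.17). SNAI2, PRRX1 and LUM were the 3 lower ones. FN1 was higher, at 5.02 in the MYCN siRNA array and 4.79 in the control siRNA array (difference 0.23), and TWIST1 was at 7.82 in both. Of the 5 haematopoietic markers, CD68, a lysosomal protein abundant in macrophages, was at 9.0 in the MYCN siRNA array and 7.27 in the control siRNA array (difference 1.74), and CSF1R, a macrophage receptor, was at 4.26 and 4.64 in the same order, near the array medians. The 1 measured endothelial marker (KDR), the 2 epithelial ones (KRT8 and KRT18) and the 1 hepatocyte one (APOA1) were at or below 5.66 in the MYCN siRNA array and 6.04 in the control siRNA array. The part of these markers in the values below was not tested.

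PYCR1 was the enzyme of the 3 that was lower by more than 2-fold. Its level was 8.22 in the MYCN siRNA array, against 9.32 in the control siRNA array. The log2 difference was −1.10, which is 2.15-fold lower, or 297 against 639 on the linear intensity scale. Across all measured genes, 1.16% were at least 2-fold lower and 2.21% at least 2-fold higher, 3.37% in all. With an offset of 16 on the linear scale, which shrinks the differences of dim genes, the excess of higher calls was smaller but remained. This setting gave 124 higher and 87 lower calls in place of 234 and 123. Since the 3 enzymes were chosen on this comparison, their count of 1 in 3 is not read against these shares. PYCR1 ranked 90 of 10592 from the lowest difference. Among the 1366 measured genes with a mean level within 0.5 of that of PYCR1, 25 including PYCR1 itself had a difference as low or lower, and the middle of this group ran from −0.22 to 0.29 (quartiles). Both values of PYCR1 lay more than 3 log2 units above the array medians.

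**Figure D1:**
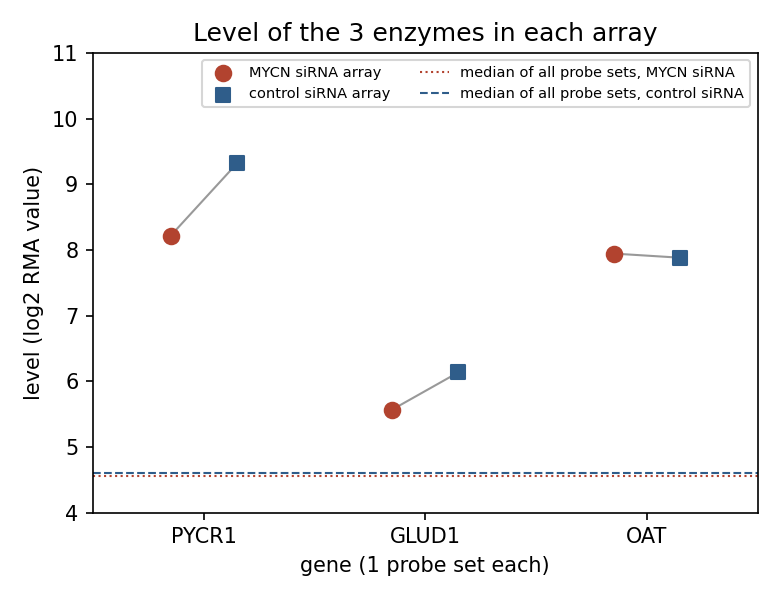
Level of PYCR1, GLUD1 and OAT as log2 RMA values, with the MYCN siRNA array (circles) left of the control siRNA array (squares); each point is 1 probe set on 1 array, and the dotted and dashed lines are the medians of all probe sets. PYCR1 (8.22 against 9.32) and GLUD1 (5.57 against 6.14) were lower in the MYCN siRNA array, and OAT (7.95 against 7.88) was nearly level.

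GLUD1 was lower by less, and from a dimmer probe set. Its level was 5.57 in the MYCN siRNA array, against 6.14 in the control siRNA array. The log2 difference was −0.57, or 1.48-fold lower, short of 2-fold. It ranked 655 of 10592 from the lowest. Of the 2240 measured genes with a mean level within 0.5 of that of GLUD1, 99 including GLUD1 had a difference as low or lower. In the MYCN siRNA array 26.1% of measured genes were at or below GLUD1, and in the control siRNA array 39.2%. The epithelial marker KRT18 lay close to it, at 5.66 and 6.04 in the same order. Whether the GLUD1 probe set reads above background was not tested. GLUD1 has a near-identical intronless copy, GLUD2, on the X chromosome and 6 pseudogenes in RefSeq that carry its name, so its single probe set may also read RNA of a copy. GLUD2 and these pseudogenes were not analysed here.

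OAT was the enzyme with the smallest difference. It was at 7.95 in the MYCN siRNA array and at 7.88 in the control siRNA array. The log2 difference of 0.06 (1.04-fold higher) is smaller than the probe set SD of 0.32 and than the median absolute difference of measured genes, 0.25. With 1 array per group, a true difference of that order in either direction is not excluded. Of 1737 measured genes with a mean level within 0.5 of that of OAT, 896 had a difference as low or lower. RefSeq also holds a pseudogene that carries the name of OAT, OATP1 on chromosome 10. It was not analysed here, and whether the OAT probe set also reads it was not checked.

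The 3 enzymes were spread over more than 1 log2 unit. The log2 difference of PYCR1 minus that of OAT was −1.17, and minus that of GLUD1 it was −0.53. The log2 difference of GLUD1 minus that of OAT was −0.63. No test was made of these gaps, since the enzymes were chosen on them. Of the pairs of probe sets that read the same gene, 3.48% also lay 1 or more apart.

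**Figure D2:**
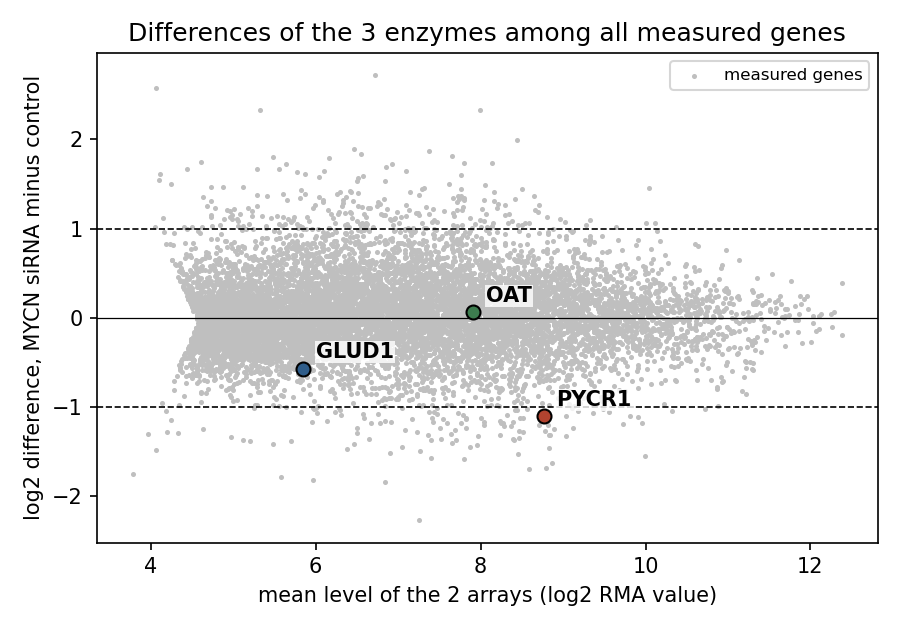
Log2 difference (MYCN siRNA minus control siRNA) against the mean log2 level of the 2 arrays for the 10592 measured genes (grey points), with PYCR1, GLUD1 and OAT marked and dashed lines at 2-fold. PYCR1 lies below the lower line at −1.10, GLUD1 between the lines at −0.57 and OAT next to 0 at 0.06.

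Of the 3 genes, 2 matched RefSeq's promoter table (GRCh38.p14). GLUD1 and OAT are both on chromosome 10, and the 250 bases before their start sites are printed here because MYCN, the target of the siRNA, binds DNA at promoters. GLUD1 had a lower value in the MYCN siRNA array and OAT a nearly level one. Capitals mark matches to the canonical E-box bound by MYC-family proteins (CACGTG), a variant E-box (CACGCG, or CGCGTG on the other strand) or the CCAAT box (CCAAT, or ATTGG on the other strand), searched on both strands. The windows are GLUD1 at chr10:87094844-87095093 and OAT at chr10:124418924-124419173, both on the minus strand and written 5′ to 3′ towards the gene.
GLUD1: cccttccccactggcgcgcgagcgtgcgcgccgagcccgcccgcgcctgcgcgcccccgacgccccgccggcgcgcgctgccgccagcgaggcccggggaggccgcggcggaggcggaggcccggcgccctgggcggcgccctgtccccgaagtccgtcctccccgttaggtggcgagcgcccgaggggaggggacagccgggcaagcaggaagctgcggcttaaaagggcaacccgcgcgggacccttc
OAT: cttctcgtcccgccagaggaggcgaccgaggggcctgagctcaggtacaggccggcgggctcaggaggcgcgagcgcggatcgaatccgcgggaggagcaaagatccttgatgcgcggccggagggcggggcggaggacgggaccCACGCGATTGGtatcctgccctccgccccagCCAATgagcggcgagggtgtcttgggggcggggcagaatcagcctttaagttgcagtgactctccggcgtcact
The GLUD1 window held none of the 3 motifs. The OAT window held 1 CACGCG, which begins 105 bases before the start, and 2 CCAAT boxes, which begin 99 and 74 bases before it. The first CCAAT box adjoins the CACGCG without overlapping it. Neither window held CACGTG, which was present in 6.34% of 35116 promoter windows of the same length, against 9.72% for CACGCG and 32.0% for CCAAT. G and C made up 80.4% of the GLUD1 window and 68.4% of the OAT window, against a median of 58% over all windows. These matches are descriptions of the letters and show no binding.

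Around PYCR1, the other measured genes of proline synthesis were lower too, by less. The list of 5 held 3 genes with a named probe set, all measured and all lower (median −0.35). PYCR1, which was chosen on this difference, is 1 of the 3 and the only 1 at least 2-fold lower. The count and median are therefore not read against all measured genes. Those had a median of 0.01, with 48% lower, 50.9% higher and 1.16% at least 2-fold lower. NADK2, the mitochondrial NAD kinase that supplies NADP for P5C synthesis, was at 6.38 in the MYCN siRNA array and 6.74 in the control siRNA array, a difference of −0.35. PYCR3, the cytosolic P5C reductase, was at 7.26 in the MYCN siRNA array and 7.47 in the control siRNA array, a difference of −0.21. The difference of PYCR3 is within the probe set SD of 0.32. ALDH18A1, which encodes P5C synthase, was not analysed here.

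Genes that break down, release or use proline went both ways. Of 18 listed genes 11 had a named probe set and 7 were measured. Of the 7, 4 were lower and 3 higher, none by 2-fold, with a median of −0.18. Of all measured genes, 48% were lower, 50.9% higher and 3.37% past 2-fold either way. With 7 genes no departure from those shares is read. PEPD, the prolidase that frees proline from dipeptides, was the highest at 10.9 in the MYCN siRNA array and 10.3 in the control siRNA array (difference 0.57). P3H4, a partner of collagen prolyl 3-hydroxylases, was the lowest (difference −0.47). EPRS1, which charges tRNAs with glutamate and proline, was at 10.4 in the MYCN siRNA array and 10.6 in the control siRNA array (difference −0.19). PRODH, proline dehydrogenase, which opposes PYCR1, was at 4.27 in the MYCN siRNA array and 3.49 in the control siRNA array. Both values were below the array medians, so no fold is given.

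Around OAT, the ornithine and arginine genes went both ways. Of 17 listed genes 13 had a named probe set and 10 were measured. Of the 10, 3 were lower and 7 higher, OAT among the higher, none by 2-fold, with a median of 0.12. The shares of all measured genes were 48% lower, 50.9% higher and 3.37% past 2-fold either way. With 10 genes no departure from them is read. ODC1, ornithine decarboxylase, which takes ornithine to polyamines, was at 10.8 in the MYCN siRNA array and 11.6 in the control siRNA array, a difference of −0.83 (1.77-fold lower), the lowest of the list. The urea cycle enzymes ASS1 and ASL, which make arginine from citrulline, were at differences of 0.17 and 0.46, and NAGS, which makes N-acetylglutamate from glutamate, was at 0.49, the highest of the genes above the median in both arrays. AZIN2, which counters the antizymes of ODC1, lay at 5.22 in the MYCN siRNA array and at 4.46 in the control siRNA array, below that array's median. It counted as measured only through the array where it was higher, so no fold is given. AZIN2 is 1 of the 7 higher genes and enters the median of 0.12. OAT, at 0.06, lay between these values.

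Of 33 listed amino acid transporters only 2 were measured, and both carry ornithine across the inner mitochondrial membrane. SLC25A15, the main ornithine carrier, was at 7.53 in the MYCN siRNA array and 8.25 in the control siRNA array (difference −0.72, 1.65-fold lower). SLC25A2, its intronless paralog, was at 4.87 and 5.46 in the same order (difference −0.59), close to the array medians. SLC25A15 brings ornithine to the compartment where OAT works, and the gap between their differences was not tested. The other listed transporters were not analysed here.

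Around GLUD1, the glutamate and glutamine enzymes also went both ways, with wide differences at both ends. Of 37 listed genes 18 had a named probe set and 17 were measured. Of the 17, 10 were lower, GLUD1 among them, and 7 higher, with a median of −0.08. Over all measured genes 48% were lower and 50.9% higher, and no departure is read from 17 genes. PFAS, a glutamine-using enzyme of purine synthesis, was at 8.21 in the MYCN siRNA array and 9.42 in the control siRNA array (difference −1.21, 2.31-fold lower). AADAT, an aminotransferase that forms glutamate from alpha-ketoglutarate, was at 6.91 in the MYCN siRNA array and 7.96 in the control siRNA array (difference −1.05, 2.07-fold lower). These were the 2 of 17 genes of the list at least 2-fold lower, beside 1.16% of all measured genes, and the offset of 16 made the count 1. No gene of the list was 2-fold higher, beside 2.21% of all measured genes.

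Enzymes that share glutamate or alpha-ketoglutarate with GLUD1 differed in direction. PSAT1, which uses glutamate in serine synthesis, was at 10.5 in the MYCN siRNA array and 11.3 in the control siRNA array (difference −0.79, 1.73-fold lower). ABAT, the GABA transaminase, was the highest at 8.45 in the MYCN siRNA array and 7.60 in the control siRNA array (difference 0.85, 1.80-fold higher). GLUL, glutamine synthetase, was at 6.98 and 7.03 in the same order (difference −0.05), and GPT, alanine aminotransferase, was at a difference of 0.01 at a dim level.

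**Figure D3:**
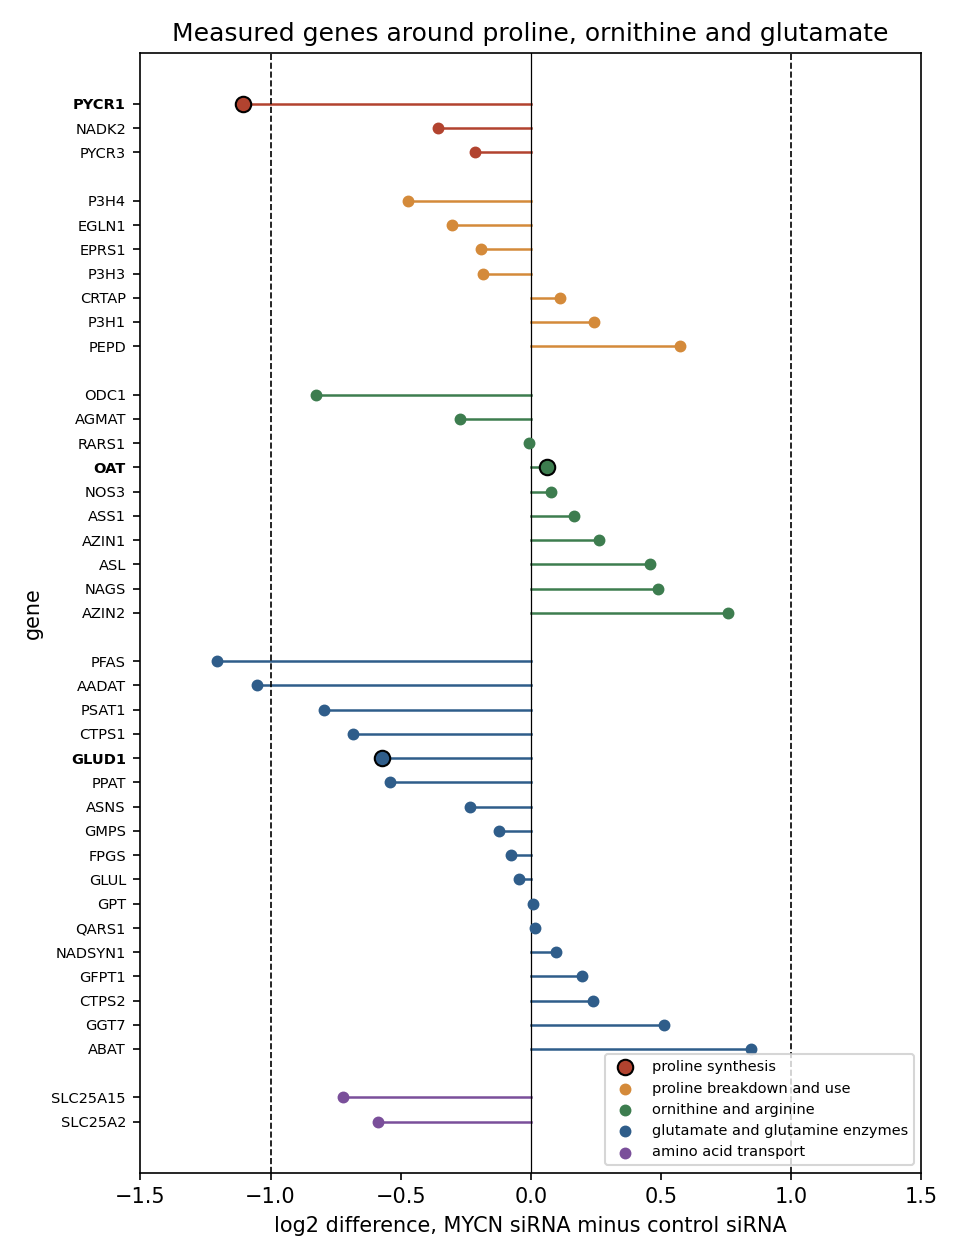
Log2 difference (MYCN siRNA minus control siRNA) of every measured gene in the lists of proline synthesis, proline breakdown and use, ornithine and arginine, glutamate and glutamine enzymes, and amino acid transport, 1 gene per line, coloured by list; dashed lines mark 2-fold and larger outlined points mark PYCR1, GLUD1 and OAT. PFAS (−1.21), PYCR1 (−1.10) and AADAT (−1.05) pass the lower line, and no gene passes the upper line; AZIN2 lies below the array median in the control siRNA array.

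Of 28 listed genes of the TCA cycle, which takes up the alpha-ketoglutarate made by GLUD1, 10 had a named probe set. All 10 were measured, 5 lower and 5 higher and none by 2-fold (median 0.06). Among all measured genes 48% were lower, 50.9% higher and 3.37% past 2-fold either way, so these counts are not read as a departure. CS, citrate synthase, was the lowest at 8.37 in the MYCN siRNA array and 8.83 in the control siRNA array (difference −0.46). OGDHL, a paralog of the E1 subunit of alpha-ketoglutarate dehydrogenase, was the highest at 8.84 and 8.21 in the same order (difference 0.63). Within that complex OGDH was at 0.22 and DLST, the E2 subunit, at −0.39. All 3 proteins listed as acting on GLUD1 were near 0. SIRT3, which deacetylates it, was at a difference of 0.10, SIRT4, which ADP-ribosylates it, at −0.05, and HADH, which inhibits it by binding, at 0.07, with SIRT4 near the array medians.

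Counted together, the metabolic lists held 49 measured genes other than the 3 enzymes. Of these, 26 (53.1%) were lower and 23 higher (median −0.04), beside 48% and 50.9% of all measured genes. The 23 include AZIN2, which counted as measured only through the array where it was higher. At least 2-fold lower were 2, beside 1.16% of all measured genes, and none was 2-fold higher, beside 2.21%. With counts this small no departure from those shares is read. PFAS was the 1 gene with a lower difference than PYCR1. A total of 7 had a lower difference than GLUD1, namely PFAS, AADAT, ODC1, PSAT1, SLC25A15, CTPS1 (a glutamine-using CTP synthase, at −0.68) and SLC25A2.

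PYCR1 is also listed among targets of ATF4, the transcription factor of the amino acid response. Of 28 genes in that list 19 had a named probe set and 18 were measured. Of the 18, 8 were lower and 10 higher, beside 48% and 50.9% of all measured genes, with a median of 0.09. PYCR1, which was chosen on this difference, was the 1 gene of the list at least 2-fold lower, and quantile normalization made the count 2. The share over all measured genes was 1.16%. ATF4 itself was at 8.99 in the MYCN siRNA array and 9.20 in the control siRNA array (difference −0.21). STC2 was the next lowest of the list after PYCR1, at 5.98 in the MYCN siRNA array and 6.93 in the control siRNA array (difference −0.95, 1.93-fold lower). PSAT1, also of this list, was at −0.79. DDIT4, an inhibitor of mTORC1, was the highest at 0.82.

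The measured protein-coding genes with the most similar pair of values were found by Euclidean distance over the 2 arrays. For PYCR1 they were PFAS (distance 0.10, difference −1.21), MPV17L2, a mitochondrial ribosome assembly factor (distance 0.11, difference −1.20), and RRS1, a ribosome assembly factor (distance 0.12, difference −1.26). For GLUD1 they were CD209, SPNS3 and HCN4, at distances of 0.01, 0.04 and 0.04 and with differences of −0.57, −0.54 and −0.61. For OAT they were LUC7L3, SFR1 and MLH3, at distances of 0.01, 0.02 and 0.02 and with differences of 0.04, 0.09 and 0.09. The likeness rests on 2 values per gene.

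Genes next to each enzyme in the RefSeq order were set beside it, 3 on each side among the genes with a named probe set. The 6 neighbours of PYCR1 on chromosome 17 were all measured and ran from −0.42 for MILIP, a long non-coding RNA gene, to 0.37 for SIRT7, a deacetylase, with a median of −0.25. None was as low as PYCR1. MAFG, a small MAF transcription factor, was at 0.30, MYADML2 at −0.24, NOTUM, a Wnt deacylase, at −0.26 and CENPX, a centromere protein, at −0.35. Of the 6 neighbours of GLUD1 on chromosome 10, 4 were measured, and they ran from −0.12 for ADIRF to 0.80 for LDB3, with NUTM2A-AS1 at 0.11 and LINC00863 at −0.04. The 6 neighbours of OAT, also on chromosome 10, ran from −0.69 for CHST15, a chondroitin sulfotransferase, to 0.32 for EEF1AKMT2, with a median of 0.02.

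The values of the 3 enzymes were recomputed after other normalizations of the deposited table. PYCR1 stayed past 2-fold, GLUD1 stayed lower by less than 2-fold and OAT stayed near 0 in each of them.

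**Figure D4:**
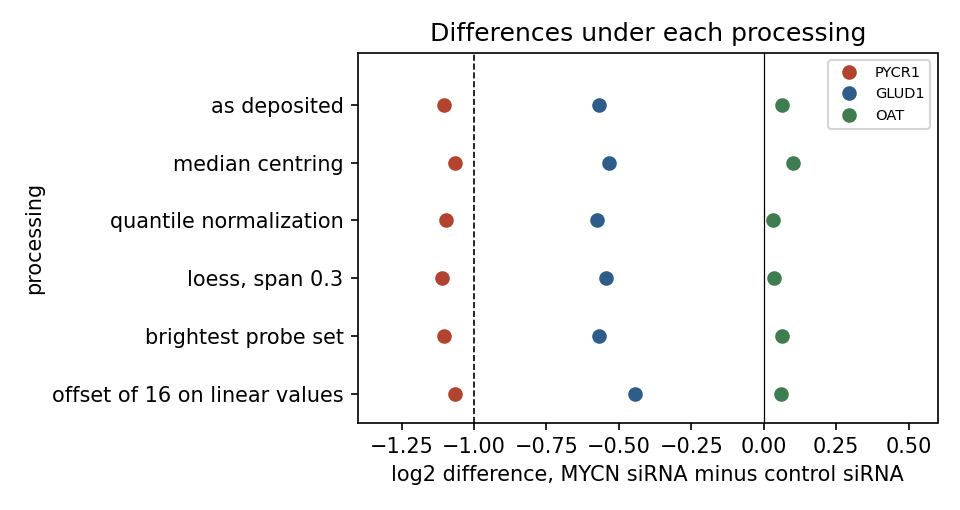
Log2 difference (MYCN siRNA minus control siRNA) of PYCR1, GLUD1 and OAT with the values as deposited and under 5 other ways of processing them; the dashed line marks 2-fold lower. PYCR1 stays between −1.11 and −1.06, GLUD1 between −0.57 and −0.45 and OAT between 0.03 and 0.10.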

How the data were processed

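RNA of 2 BE(2)C cultures was measured on 1 array each. The deposited table holds log2 values, 1 per probe set and array; per the submitters' processing notes the authors used RMA. Its software, settings and the arrays normalized together were not given in the sources used. RMA usually equalises the distributions of arrays, so a change in total RNA per cell cannot be seen. The control array is titled as a reanalysis, with no further detail in the labels.

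Of 46255 rows, 15835 had 1 gene symbol in the platform annotation, none had several and 30420 were unnamed here. Symbols were updated through gene identifiers to RefSeq (GRCh38.p14), and all 15835 matched. Probe sets of a gene were averaged with pandas 2.3.3. Differences are MYCN siRNA minus control siRNA, and the threshold for counts was 2-fold. Named genes were the 3 enzymes, the members of each pathway list past 2-fold, highest or lowest, up to 3 more that share a substrate or product, 3 nearest genes and 3 neighbours per side. ATF4, CTPS1, P3H2, STC2 and the markers named were chosen after their values were seen. The members and lists were chosen with earlier results of these data known. The scripts were tested on simulated data. The number of arrays limits the precision.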

Additional observations from a re-analysis of the deposited data

How the results depend on the processing

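No paired analysis was possible because each group has 1 array. Under median centring, quantile normalization, loess (span 0.3) and an offset of 16 on linear values, PYCR1 remained at least 2-fold lower (−1.11 to −1.06), GLUD1 lower by less than 2-fold (−0.57 to −0.45) and OAT between 0.03 and 0.10; the brightest probe set could not move genes with 1 probe set. Of 222 values recomputed, 209 moved by less than the probe set SD or, for counts, by no more than 1.5 times. The others were counts. The 209 include counts of 0 that stayed 0. The SD of 0.32 exceeds most list medians, so a median could change sign and still be among the 209. With the offset of 16, genes at least 2-fold higher numbered 124 instead of 234, and 1 glutamate or glutamine enzyme was 2-fold lower instead of 2. Under quantile normalization 2 genes of the ATF4 list were 2-fold lower instead of 1. At a threshold of 1.5-fold, 613 of 10592 measured genes were lower and 933 of 10592 higher. That threshold gave 1 lower and 1 higher of 10 genes for ornithine and arginine, and 4 lower and 1 higher of 17 for glutamate and glutamine. It gave 2 lower of 2 for transport and 1 higher of 10 for the TCA cycle. For the ATF4 list it gave 3 lower, PYCR1 among them, and 3 higher of 18. The higher ornithine and arginine gene was AZIN2, measured only through the array where it was higher. These small counts are not read against the share of all measured genes. The cause of the changes with the offset and with quantile normalization was not tested. A looser threshold passes more genes by construction.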

Other observations

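Many probe sets held exactly the same value in both arrays to the 4 decimals deposited. This was so for 1859 of 46255 probe sets (4.02%) and for 123 of 10592 measured genes (1.16%), whereas 30 probe sets differed by more than 0 and at most 0.001. PYCR1, GLUD1 and OAT were not among them. BUB3, a spindle checkpoint gene near OAT, was at 10.2 in both arrays, and P3H2, a collagen prolyl 3-hydroxylase, was at 3.52 in both.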
